A study of Mus musculus with 34 samples.

Results

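Expression was compared among 8 liver tumors of 1 genotype and strain background, the mixed-strain WT tumors, which are 8 of the 34 samples of the series. Genes were kept when their mean over these 8 tumors was at least 5 CPM (reads of a gene scaled to a common library total), which left 11720 of the 46528 genes in the table. The mice carried LAP-tTA, which places a tetracycline-regulated activator under a promoter active in hepatocytes, and TRE-MYC, a MYC transgene that this activator switches on. They were also homozygous for floxed Arid1a and had no Cre, so that the floxed alleles stayed in place. The strain was given as "C57/B6 and 129, FVB mix", the age as about 90 days, and tumors formed after doxycycline was taken out of the drinking water. A tumor was taken when its mouse died. As a comparison set, 4 FVB WT tumors of the same genotype were used, from mice about 55 days old. The labels give neither the sex, litter or batch of a sample nor whether each tumor came from its own mouse.

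A mature hepatocyte makes plasma proteins, metabolises nitrogen, drugs and cholesterol, and divides rarely. MYC drives ribosome production and the cell cycle, and liver tumors driven by it usually hold fetal liver genes and lower levels of adult metabolic enzymes. A tumor sample also holds blood vessels, stellate cells and fibroblasts, macrophages and blood, and each of these can take a different share in different tumors. In bulk RNA, fewer cells of a type and less RNA per cell cannot be told apart.

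The deposited values gave back 2.28 to 5.14 M reads per tumor (median 3.79 M), lowest in WT 2 and highest in WT 4. Every pair of the 8 tumors differed by more than read counting: over 5236 genes with many reads, the median ratio of observed to counting variance was 6.66 to 31.2 over the 28 pairs. The labelled tissue was checked with 27 plasma protein genes of hepatocytes, and all 27 passed the filter in these tumors, with albumin (Alb) at 473 to 1140 CPM and alpha-fetoprotein (Afp), a fetal liver protein, at 494 to 1070 CPM. Arid1a, whose alleles were floxed but not deleted, was at 314 CPM in WT 6, had a median of 349 CPM and reached 490 CPM in WT 7. The Y-linked gene Ddx3y was at 99.4 to 190 CPM in all 8 tumors, and Xist, the RNA of the inactive X chromosome, at 0 to 2.43 on the log2(CPM + 1) scale. Of 14 pancreatic acinar genes only Cela1 passed the filter.

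The spread of a gene was taken as the SD of log2(CPM + 1) over the 8 tumors. Its median over the 11720 genes was 0.350, and the central 90% of genes ran from 0.154 to 0.999. The difference between the highest and lowest tumor was at least 1 on this scale for 6087 genes (51.9%) and at least 4 for 281 genes. Read counting alone was a small part of this: the variance was no larger than the counting variance in 136 genes (1.16%), and over all genes its median was 10.4 times the counting variance. Because the SD falls as the level rises, each SD was divided by the SD typical of genes at the same level, from limma's robust variance trend. This ratio had a median of 1.03 over all genes.

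**Figure D1:**
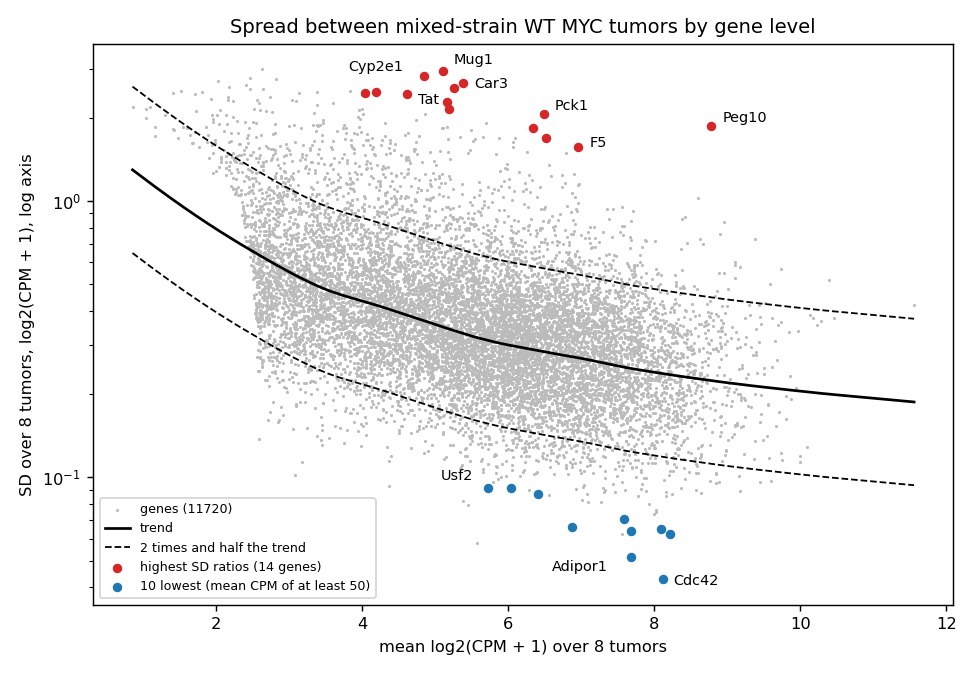
Each point is 1 of the 11720 genes, with its mean log2(CPM + 1) over the 8 tumors on the x axis, the SD over the tumors on the y axis, and the variance trend as a line. The 14 genes in red, from those with the highest ratio to the trend, lie far above the line and the 10 with the lowest ratio (blue) lie below it.

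No gene passed limma's test of its variance against the trend at a Benjamini-Hochberg adjusted p under 0.05, so 0% of genes were called in either direction. At an unadjusted p under 0.05 it gave 638 genes with high and 582 with low variance. Both counts lie close to the share of genes that a threshold of 0.05 passes. The test took its reference spread of variances around the trend from these same genes, so counts near this share follow largely from the fit. They cannot show whether genes depart from the trend. The smallest adjusted p was 0.694 for high and 0.743 for low variance. The non-robust limma fit also called 0 genes, with 616 and 576 at the unadjusted threshold. What follows is therefore a description of sizes. A gene is called variable when its SD was at least 2 times the trend, which held for 1015 genes (8.66%), and stable when it was at most 0.5 times the trend, which held for 593 genes (5.06%). Just inside the upper limit lay Rrm2 (2.001) and Bora (2.002), and just outside it Ftcd (1.998), Aff1 (1.999) and Arid3a (1.999). At the level filter, Trp53i13 (5.001 CPM) and Toporsos (5.002 CPM) were just inside and Angel1 (4.996 CPM) just outside.

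With predicted-gene symbols left out, the highest ratio belonged to Mug1 (chr6:121838541-121889057, GRCm38), which encodes murinoglobulin, a protease inhibitor that hepatocytes secrete. Its level was 2.25 CPM in WT 6, had a median of 32.6 CPM and reached 1400 CPM in WT 2, an SD of 2.95 and 8.44 times the trend. Without WT 2 its highest value was 220 CPM, so WT 2 stood above all the others. Peg10, a gene derived from a retrotransposon and expressed from the paternal allele in placenta and fetal liver, came next at 8.36 times the trend. It was at 53.6 CPM in WT 2, had a median of 935 CPM and reached 1290 CPM in WT 6, so that here WT 2 was the lowest tumor. Car3, a carbonic anhydrase, was at 4.13 CPM in WT 8, 52.0 CPM at the median and 540 CPM in WT 2 (8.05 times the trend).

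Enzymes of adult liver metabolism followed. Cyp2e1, a cytochrome P450 of the cells around the central vein, was at 1.51 CPM in WT 1, 35.5 CPM at the median and 733 CPM in WT 2 (7.66 times the trend). Tat, which starts tyrosine breakdown, ran from 0.753 CPM in WT 1 over a median of 39.7 CPM to 733 CPM in WT 2 (7.55 times). Pck1, the enzyme that commits carbon to glucose synthesis, ran from 7.82 CPM in WT 7 over a median of 124 CPM to 749 CPM in WT 2 (7.25 times). For these 3 genes WT 2 was the highest tumor, while WT 1 or WT 7 was the lowest.

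Abcb1a, a drug efflux pump, was also highest in a tumor other than WT 2. It was at 9.20 CPM in WT 7, 145 CPM at the median and 281 CPM in WT 6 (5.96 times). Further genes with high ratios were Pigr, the receptor that carries antibodies across epithelia (2.27 to 738 CPM), Azgp1 (6.73 to 271 CPM), the serpin gene Serpina3k (1.51 to 494 CPM), Aass, an enzyme of lysine breakdown (1.11 to 260 CPM), Tdo2, an enzyme of tryptophan breakdown (1.68 to 366 CPM), coagulation factor gene F5 (21.9 to 754 CPM) and Cml2 (0.376 to 511 CPM). These 7 genes were all highest in WT 2.

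**Figure D2:**
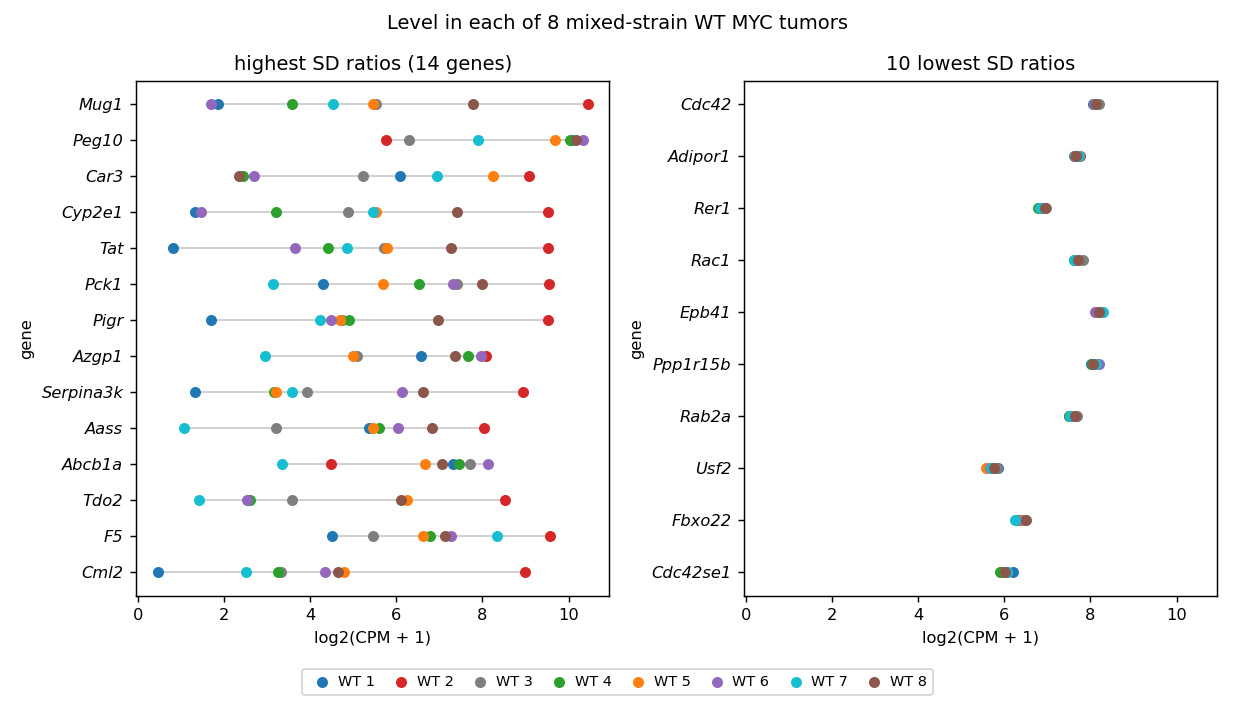
The log2(CPM + 1) of each of 14 genes with the highest and the 10 with the lowest ratio to the trend is plotted for each of the 8 tumors, which are told apart as given in the key. In most of the variable genes WT 2 is the highest tumor, with Peg10 as the exception in which it is the lowest, while the 8 tumors of each stable gene nearly coincide.

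The genes with the lowest ratio, among those averaging at least 50 CPM and with predicted-gene symbols left out, had nearly the same level in all tumors. Cdc42 (chr4:137319696-137357720), a small GTPase that organises the actin cytoskeleton, was at 266 CPM in the lowest tumor, 276 CPM at the median and 293 CPM in the highest, with an SD of 0.0428 and 0.18 times the trend. Adipor1, an adiponectin receptor, ran from 197 to 217 CPM (0.209 times), Rer1, which returns membrane proteins to the endoplasmic reticulum, from 110 to 125 CPM (0.243 times), and Rac1, another small GTPase, from 194 to 225 CPM (0.258 times). The next 6 were Epb41, Ppp1r15b, Rab2a, Usf2, Fbxo22 and Cdc42se1, the last at 0.305 times the trend. In each of the 4 genes given with values the 8 tumors lay within a narrow band.

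WT 2 had a large part in the variable genes. It was the highest tumor in 394 of the 1015 (38.8%), against 13.9% of all genes, and WT 1 was the lowest tumor in 27.5% against 18.3%. WT 2 was also the library with the fewest reads, and WT 1 the next. With the trend fitted again without WT 2, 1017 of 11623 genes (8.75%) were variable, and of the original 1015 genes 977 could be tested and 800 remained variable. With each of the 8 tumors left out in turn, 487 of the 1015 remained variable in every fit in which they passed the filter. Fits in which a gene did not pass were not counted against it. Over all genes the first principal component held 35.4% of the variance and set WT 2 (71.95) and WT 7 (22.56) against WT 1 (−35.51) and WT 3 (−28.18). The genes weighing most at the WT 2 end were Mug1, Cyp2e1, Cyp1a2, Mup3, Ces3a, Saa2, Saa1 and Cyp7a1, and at the other end Peg10, Abcb1a, Fabp6, Scml4 and Hmgn2. Outside WT 2, Mup3, Saa2 and Saa1 reached at most 3.53, 1.95 and 4.78 CPM. They passed the filter only through WT 2, so their weight at its end follows in part from the filter. The second component held 18% and set WT 4 (31.94) and WT 8 (20.26) against WT 7 (−43.83) and WT 1 (−23.05), with Aass, Cdh16, Mmp12, Etnppl, Pck1 and Spp1 at the first end and Car3, Tff3, Serpina12 and Pgam2 at the other.

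Adult hepatocyte enzymes had the highest median ratio of the 30 gene lists examined over all 8 tumors. Acute phase proteins had a higher one when WT 2, WT 3, WT 4 or WT 7 was left out. Without WT 2 the enzymes fell to 2.565, below acute phase (3.01), stellate and fibroblast (2.74), immediate early and heat shock (2.67) and biliary genes (2.61). Neutrophil genes, at 2.566, were then level with the enzymes. Of 33 genes on the enzyme list all 33 passed the filter, 24 were variable against a background of 8.66%, and the median ratio was 3.08. The highest tumor was WT 2 for 31 of the 33. For the mean deviation of the list, each gene was taken from its own mean over the 8 tumors. It was 2.44 in WT 2, 0.47 in WT 8, 0.28 in WT 5 and −1.39 in WT 1, and between −0.38 and −0.52 in WT 3, WT 4, WT 6 and WT 7. Over the 30 genes that pass the filter without WT 2 it was 2.15 in WT 2, so the 2.44 follows in part from the filter. Cyp7a1, which limits the rate at which bile acids are made from cholesterol, ran from 0.376 CPM in WT 1 over a median of 9.53 CPM to 235 CPM in WT 2. Uox, which degrades uric acid, ran from 7.0 CPM in WT 7 over 84.2 CPM to 427 CPM in WT 2. The lowest ratios of the list were those of Ass1 and Fah. Ass1, of the urea cycle, stayed between 230 and 433 CPM (1.37 times the trend), and Fah, of tyrosine breakdown, between 153 and 310 CPM (1.36 times), and these too were highest in WT 2.

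Without WT 2 the enzymes still spread widely, but they no longer moved together to the same degree. Then 19 of the 30 genes that passed the filter were variable and the median ratio was 2.57, while the median correlation between 2 genes of the list dropped from 0.64 over 8 tumors to 0.23 over the other 7. Cyp2e1, for example, was at 7.40 on the log2 scale in WT 8, 5.54 in WT 5, 5.45 in WT 7 and 4.87 in WT 3, and at 3.20 in WT 4, 1.46 in WT 6 and 1.33 in WT 1. A correlation over 8 tumors is given here and below as a description, since all genes of a tumor share its library and depth. Over 1172 genes, the median correlation of a pair was 0.029, and 18.1% of pairs were at 0.5 or above.

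The pericentral list holds genes that Wnt signaling turns on around the central vein, and shares Cyp2e1 and others with the enzyme list. Of 16 genes 9 passed the filter and 7 were variable, with a median ratio of 2.77, but 3 of the 9 passed only through WT 2, and without it 3 of 6 were variable with a median of 1.95. Glul, glutamine synthetase, was at 135 CPM in WT 6, 183 CPM at the median and 490 CPM in WT 2. Cyp1a2 was at 0 in WT 1, had a median of 4.06 CPM and reached 344 CPM in WT 2. Aldh1a7 differed in that WT 5 was highest, at 157 CPM, above a median of 26.4 CPM and 3.50 CPM in WT 4. Znrf3, a membrane ubiquitin ligase that restrains Wnt receptors, stayed between 79.4 and 128 CPM (0.776 times the trend).

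Genes with a known sex bias in liver, among them the major urinary proteins, varied through WT 2 above all. Of 24 genes 12 passed the filter and 7 were variable, but only 2 of 6 without WT 2. Mup3 was at 0 in WT 1, had a median of 2.04 CPM and reached 339 CPM in WT 2. Cyp4a12a, a male-biased P450, had a median of 22.5 CPM and stood at 186 CPM in WT 2. Of the 12 genes, 6 passed the filter only through WT 2, so that the mean deviation of 3.19 for the list in WT 2 follows in part from the filter. Over the 6 genes that pass without WT 2 it was 1.47 in WT 2, 0.09 in WT 8 and between −0.82 and −0.03 in the other 6 tumors. Several of these genes are near-identical copies, whose reads the counting could have split.

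The transcription factors that hold hepatocyte identity varied much less than the enzymes. Of 17 genes 15 passed the filter, 1 was variable and the median ratio was 1.35. Hnf4a, the central factor of the network, was at 552 CPM in WT 4, 692 CPM at the median and 878 CPM in WT 2 (1.11 times the trend). Cebpa had a median of 236 CPM and ran from 186 CPM in WT 5 to 364 CPM in WT 2. The variable gene was Nr0b2, which encodes the bile acid-induced repressor SHP, at 0 in WT 7, 21 CPM at the median and 45.2 CPM in WT 6.

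Plasma protein genes moved together, and their levels moved with sequencing depth. Of 27 genes 6 were variable, the median ratio was 1.73 and the median correlation of a pair was 0.81, or 0.61 without WT 2, which was the highest tumor for 26 of the 27. Without WT 7 the count was 11. Apob, the protein of very low density lipoprotein, was at 2300 CPM in WT 4, 2730 CPM at the median and 5440 CPM in WT 2. Apoc3, an inhibitor of triglyceride clearance, ran from 18 CPM in WT 3 over 47 CPM to 192 CPM in WT 2 (3.20 times the trend). The median correlation of these genes with log2 depth was −0.885, and with depth as a covariate the median ratio of the list was 0.979.

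Alb was tested against depth in a set of 11 genes, together with Afp. Its correlation with log2 depth was −0.885 by Pearson (exact permutation p = 0.00206, Benjamini-Hochberg adjusted p = 0.0226) and −0.833 by Spearman (exact permutation p = 0.0154, adjusted p = 0.169), and −0.67 without WT 1 and WT 2. Afp gave −0.844 (exact permutation p = 0.00811, adjusted p = 0.0446), −0.738 by Spearman (exact permutation p = 0.0458, adjusted p = 0.252) and −0.55 without the same 2 tumors. For the other 9 genes the adjusted exact permutation p was at least 0.41. Alb reached only 0.932 to 1.34 reads per exonic base, and mt-Nd1 1.10 to 1.34. In 51 genes with at least 0.5 reads per exonic base in every tumor, the median correlation with log2 depth was −0.981 and 49 lay at or below −0.8, against a median of 0.213 over all genes, of which 3.58% lay that low. Whether this limit on abundant genes accounts for the movement of the plasma proteins was not tested.

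**Figure D3:**
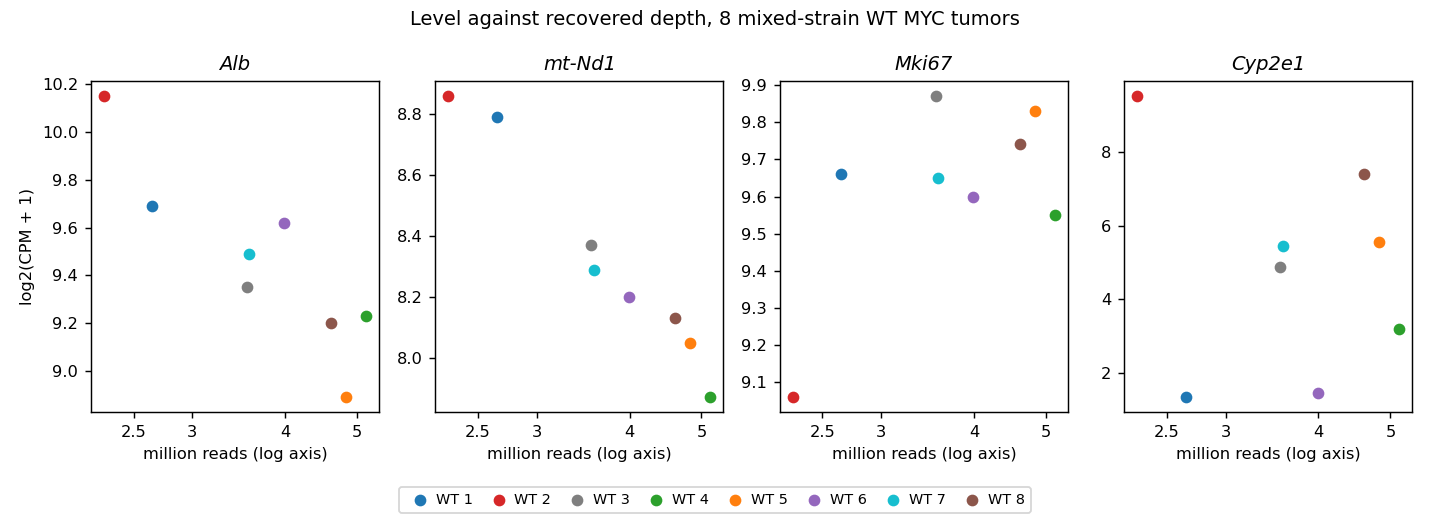
The log2(CPM + 1) of Alb, mt-Nd1, Mki67 and Cyp2e1 is plotted against the recovered depth of each of the 8 tumors in M reads (log axis). Alb and mt-Nd1 fall from WT 2, the shallowest library, toward the deepest ones, while Cyp2e1 and Mki67 show no such order.

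Acute phase proteins, which hepatocytes secrete in inflammation, were variable in most genes of their list. Of 24 genes 21 passed the filter and 18 were variable, with a median ratio of 2.96, and without WT 2 the median was 3.01 and the median pair correlation 0.42, against 0.65 over all 8. The mean deviation was 1.92 in WT 2, 0.57 in WT 6 and −1.03 in WT 1. Orm1, orosomucoid, ran from 1.95 CPM in WT 7 over 13.8 CPM to 176 CPM in WT 2. Hp, haptoglobin, ran from 77.8 CPM in WT 3 over 162 CPM to 533 CPM in WT 2. Cp, ceruloplasmin, and Lcn2, lipocalin-2, were instead highest in WT 6, at 860 and 169 CPM, with medians of 454 and 75.7 CPM. Saa1 and Saa2, adjacent serum amyloid genes of closely similar sequence, had a correlation of 0.990 with each other, but they were at 192 and 184 CPM in WT 2 and at most 4.78 and 1.95 CPM elsewhere, so that this value rests on WT 2.

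Fetal liver genes did not vary as 1 group. Of 22 genes 18 passed the filter and 5 were variable, with a median ratio of 1.74, and the tumor with the highest level differed from gene to gene. Igf2bp1, an RNA-binding protein of fetal tissues, was at 0.753 CPM in WT 1, 5.64 CPM at the median and 201 CPM in WT 7. Cd24a, a surface protein of progenitor cells, was at 1.11 CPM in WT 7, 10.5 CPM at the median and 111 CPM in WT 5. Gpc3, glypican-3, ran from 3.26 CPM in WT 6 over 16.3 CPM to 85.2 CPM in WT 8. Afp (1.68 times the trend), the growth factor gene Igf2 (884 to 1790 CPM, 1.75 times) and the noncoding RNA H19 (454 to 935 CPM, 1.75 times) were expressed in every tumor, and all 3 were highest in WT 2, the library of lowest depth.

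Peg10 (chr6:4747306-4760517, GRCm38) shares its imprinted locus with Sgce (chr6:4674350-4747207), which encodes a sarcoglycan of the membrane and whose annotated end nearest to it lies 99 bases away. Sgce was at 1.69 CPM in WT 3, 29.7 CPM at the median and 61.2 CPM in WT 6 (4.10 times the trend), and its correlation with Peg10 over the 8 tumors was 0.939. On the log2 scale Peg10 was at 5.77 in WT 2, 6.30 in WT 3 and 7.89 in WT 7 and at 9.69 to 10.33 in the other 5 tumors. Sgce was at 2.65, 1.43 and 3.70 in the same 3 tumors and at 4.67 to 5.96 in the others, so the same 3 tumors were low for both genes. Peg3, another paternally expressed gene, was at 442 to 1120 CPM and was lowest in WT 1 and highest in WT 7.

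Markers of bile duct and progenitor cells set WT 4 and WT 8 apart. Of 15 genes 9 passed the filter and 6 were variable, with a median ratio of 2.56 and a median pair correlation of 0.60, which was 0.71 without WT 2. Without WT 4 the correlation was 0.33 and 4 of 7 genes were variable. On average the list lay 1.98 above its mean in WT 4 and 1.22 in WT 8, against at most 0.38 in the other 6 tumors. Only 7 of the 9 genes passed the filter without WT 4, so the value in WT 4 follows in part from the filter. Spp1, osteopontin, was at 1.13 CPM in WT 1, 6.21 CPM at the median and 89.5 CPM in WT 4. Krt7, a duct keratin, ran from 0.376 CPM in WT 1 over 2.96 CPM to 26.7 CPM in WT 4, and Epcam, an epithelial adhesion protein, from 1.69 CPM in WT 3 over 5.09 CPM to 29.1 CPM in WT 4. Krt19 averaged 2.60 CPM and did not pass the filter. The transcription factor gene Onecut2 was instead highest in WT 2 (113 CPM) and did not share the order of the duct proteins.

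Stellate cell and fibroblast genes were low in WT 6 and WT 7. Of 20 genes 17 passed the filter and 14 were variable, with a median ratio of 2.64 and 2.74 without WT 2. Col1a1, a chain of type I collagen, was at 76.7 CPM in WT 6, 177 CPM at the median and 445 CPM in WT 1. Reln, reelin, which stellate cells make in liver, was at 1.25 CPM in WT 6, 45.4 CPM at the median and 138 CPM in WT 2. Dcn, the matrix proteoglycan decorin, was at 7.51 CPM in WT 6, 80.6 CPM at the median and 146 CPM in WT 4. The mean deviation of the list was −1.54 in WT 6 and −0.94 in WT 7, and between 0.10 and 0.98 in the other 6 tumors, and the median pair correlation was 0.72, or 0.73 without WT 2.

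Endothelial genes had the same 2 tumors at the bottom with smaller differences. Of 17 genes 16 passed the filter and 5 were variable, with a median ratio of 1.44, and leaving out WT 6 or WT 8 left 3 variable. Stab2, a scavenger receptor of liver sinusoidal endothelium, was at 30.3 CPM in WT 6, 74.1 CPM at the median and 105 CPM in WT 2. Vwf, von Willebrand factor, of larger vessels, was at 3.92 CPM in WT 7, 21.1 CPM at the median and 60.0 CPM in WT 4. Their mean deviation was −0.74 in WT 6 and −0.57 in WT 7, and its correlation with that of the stellate and fibroblast list was 0.91, or 0.92 without WT 2. Esam and Egfl7, further endothelial genes, varied less than the trend (0.616 and 0.598 times).

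Macrophage genes followed yet another order, with WT 2 at the top and WT 6 and WT 1 at the bottom (mean deviations of 1.06, −0.94 and −0.72). Of 18 genes 16 passed the filter and 5 were variable, with a median ratio of 1.81. The highest ratios of the list were those of Clec4f and Vsig4, both expressed by Kupffer cells, the resident macrophages of liver sinusoids. Clec4f, a lectin, was at 0.248 CPM in WT 6, 20.5 CPM at the median and 175 CPM in WT 2, and Vsig4, a complement receptor, at 0.248 CPM in WT 6, 15.5 CPM at the median and 36.0 CPM in WT 2. Cd5l, another gene of Kupffer cells, ran from 159 to 346 CPM (1.55 times the trend). Csf1r, the receptor for the macrophage growth factor, ran from 63.9 CPM in WT 1 to 185 CPM in WT 2 (1.96 times), and Lyz2, lysozyme, only from 139 to 233 CPM (0.913 times). The mean deviation of macrophage genes had a correlation of 0.87 with that of hepatocyte enzymes, and 0.77 without WT 2.

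**Figure D4:**
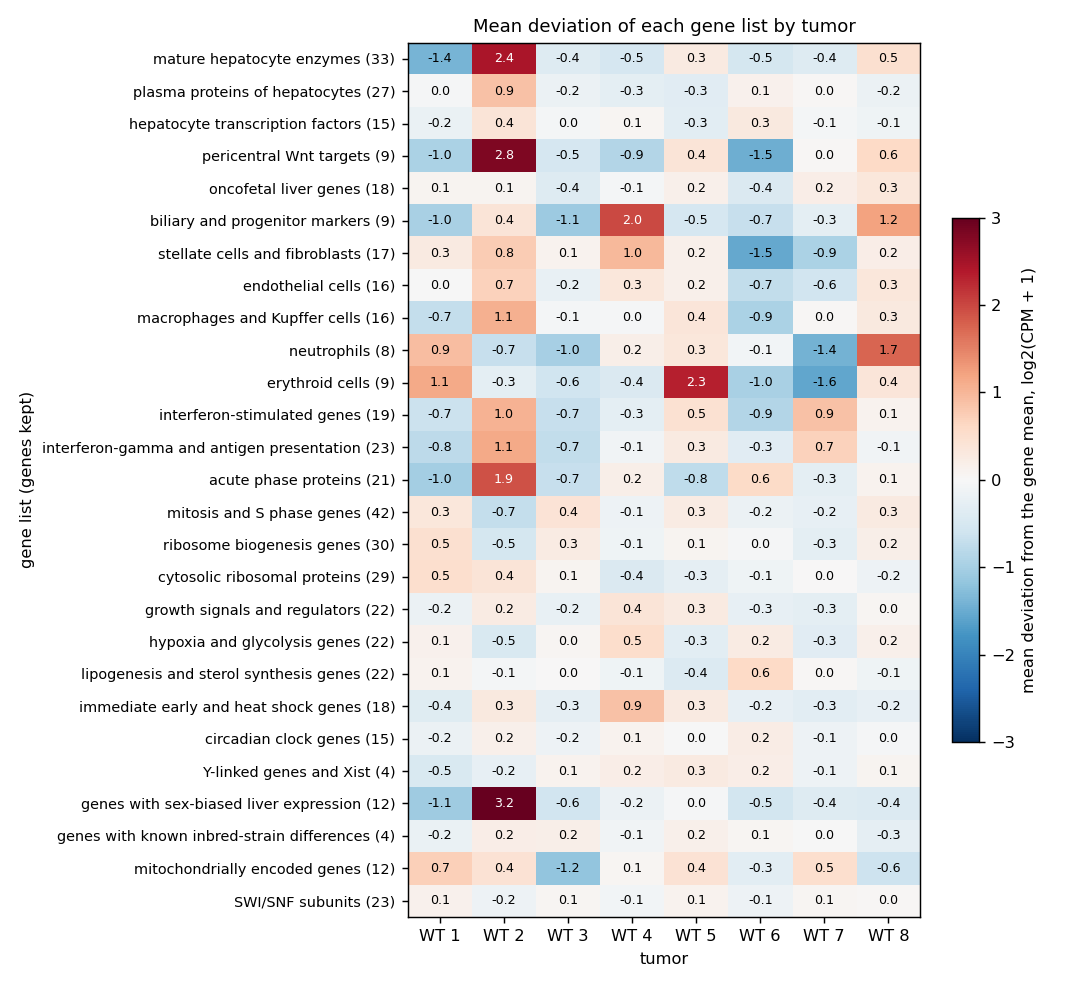
Each row is a gene list with at least 3 genes past the filter, each column 1 of the 8 tumors, and the color the mean deviation of the list in log2(CPM + 1), each gene taken from its own mean over the tumors. WT 2 is high for hepatocyte enzymes (2.44) and acute phase proteins (1.92), WT 4 for biliary markers (1.98) and WT 5 for erythroid genes (2.34), and WT 6 is low for stellate cells and fibroblasts (−1.54). The high values given here follow in part from the filter.

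Averaged over their list, neutrophil genes were highest in WT 8 and WT 1 and lowest in WT 7. Of 14 genes 8 passed the filter and 6 were variable, with a median ratio of 2.35 and a median pair correlation of 0.66. Without WT 8 only 6 genes passed, 4 were variable and the median pair correlation was 0.45, so the place of WT 8 follows in part from the filter. Lcn2 had the highest ratio of the list (3.97) but another order, with 169 CPM in WT 6 and 18.3 CPM in WT 5, its lowest tumor. S100a8, a subunit of calprotectin, was at 2.51 CPM in WT 7, 7.47 CPM at the median and 34.3 CPM in WT 1, and its partner S100a9 ran from 1.39 CPM in WT 7 over 11.2 CPM to 38.7 CPM in WT 8. The correlation of the 2 genes was 0.954. Ngp and Mpo, granule proteins of immature neutrophils, were both at 0 in WT 7 and reached 35.0 and 22.6 CPM in WT 8.

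Erythroid genes were highest in WT 5, then in WT 1, and lowest in WT 7. Of 16 genes 9 passed the filter and 4 were variable, with a median ratio of 1.97 and a median pair correlation of 0.72, or 0.82 without WT 2. Their mean deviation was 2.34 in WT 5, 1.14 in WT 1 and −1.56 in WT 7. Without WT 5 only 5 of the 9 genes passed the filter, so the value in WT 5 follows in part from the filter. Slc4a1, the anion exchanger of red cells, was at 0.558 CPM in WT 7, 9.17 CPM at the median and 171 CPM in WT 5. Alas2, the first enzyme of heme synthesis in red cells, was at 3.63 CPM in WT 7, 18.7 CPM at the median and 71.0 CPM in WT 5. Klf1, a factor of red cell precursors, reached 20.3 CPM in WT 5 over a median of 3.93 CPM. The adult beta globin genes Hbb-bs (3.0 to 23.8 CPM) and Hbb-bt (8.65 to 32.4 CPM) spread less, at 1.96 and 1.68 times the trend. These 2 are near-identical and may share reads. The count was 2 of 5 without WT 5, and 7 of 9 without WT 2, WT 3 or WT 4.

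Lymphocyte genes were too low to describe. Of 20 genes of T and NK cells only Cd4, which macrophages also make in some species, passed the filter, and Cd3e averaged 0.903 CPM. Of 14 genes of B and plasma cells Igkc and Cd22 passed, and neither was variable.

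Interferons bind receptors on the cell surface, whose signal brings transcription factors to an element, the ISRE, in the promoters of antiviral genes. To show the element in sequence, the RefSeq promoters (build GRCm38.p6, from 250 bases before to 50 after the start of the transcript) are printed for 4 of the 7 variable genes of the list, chosen because they hold it, in lower case with matches on either strand to the ISRE core (GAAA, any pair of bases, GAAA) in capitals.
Ifit1 (chr19:34640639-34640938, + strand): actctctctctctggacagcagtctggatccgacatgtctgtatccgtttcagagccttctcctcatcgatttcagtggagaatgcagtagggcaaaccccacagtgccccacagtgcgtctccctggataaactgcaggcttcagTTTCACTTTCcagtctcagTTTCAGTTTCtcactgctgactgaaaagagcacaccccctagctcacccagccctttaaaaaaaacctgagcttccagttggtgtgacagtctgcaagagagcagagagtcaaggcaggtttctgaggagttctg
Isg15 (chr4:156200769-156201068, - strand): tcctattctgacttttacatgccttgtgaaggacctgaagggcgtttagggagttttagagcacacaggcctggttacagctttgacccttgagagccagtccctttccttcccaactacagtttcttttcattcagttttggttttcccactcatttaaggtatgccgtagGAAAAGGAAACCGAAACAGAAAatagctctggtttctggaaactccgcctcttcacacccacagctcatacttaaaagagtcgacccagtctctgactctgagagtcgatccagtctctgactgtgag
Rsad2 (chr12:26456403-26456702, - strand): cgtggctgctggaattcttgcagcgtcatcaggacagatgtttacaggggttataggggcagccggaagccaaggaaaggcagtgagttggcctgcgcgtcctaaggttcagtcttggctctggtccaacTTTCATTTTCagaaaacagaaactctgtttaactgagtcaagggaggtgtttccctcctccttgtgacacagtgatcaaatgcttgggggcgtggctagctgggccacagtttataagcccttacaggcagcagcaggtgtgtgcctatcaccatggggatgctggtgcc
Ifih1 (chr2:62646206-62646505, - strand): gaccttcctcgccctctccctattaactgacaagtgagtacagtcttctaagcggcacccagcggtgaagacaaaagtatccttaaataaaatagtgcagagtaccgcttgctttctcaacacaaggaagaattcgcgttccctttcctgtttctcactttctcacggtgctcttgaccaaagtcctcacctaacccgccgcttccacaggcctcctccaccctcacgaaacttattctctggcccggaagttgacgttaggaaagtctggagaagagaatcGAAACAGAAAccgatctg
In Isg15 the 3 matches overlap, and they are printed as 1 run. Of the 19 interferon-stimulated genes that passed the filter 14 had a promoter entry, and 8 of these held a match and 6 did not, the variable gene Irf7 among them, while 3.44% of all 32851 promoters in the RefSeq table did. A match is a stretch of letters, not a measured binding site.

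These genes were highest in WT 2 and WT 7 and lowest in WT 6. Of 30 genes 19 passed the filter and 7 were variable, with a median ratio of 1.72, and without WT 7 it was 4 of 18. The median pair correlation was 0.72, and 0.65 without WT 2. Ifit1, which binds foreign RNA, was at 1.13 CPM in WT 1, 4.76 CPM at the median and 24.8 CPM in WT 7. Irf7, which amplifies the response, was at 2.51 CPM in WT 6, 13.2 CPM at the median and 62.1 CPM in WT 2. Rsad2, the antiviral protein viperin, was at 2.51 CPM in WT 6, 12.3 CPM at the median and 52.4 CPM in WT 5, and Ifih1, an RNA sensor, at 9.06 CPM in WT 3, 18.1 CPM at the median and 67.1 CPM in WT 2. Isg15, a ubiquitin-like protein, ran from 0.505 CPM in WT 6 over 5.46 CPM to 20.7 CPM in WT 2. The mean deviation was 1.04 in WT 2, 0.89 in WT 7 and 0.46 in WT 5, against −0.88 in WT 6, −0.68 in WT 3 and −0.66 in WT 1. With depth as a covariate WT 7 rather than WT 2 was the highest. Most of the response was at a low level: Ifit3, Dhx58, Ifi44 and Mx1 were among the 11 genes that did not pass.

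Genes induced by interferon gamma and genes of antigen presentation moved with them. Of 27 genes 23 passed the filter and 9 were variable, with a median ratio of 1.71, and the mean deviation had a correlation of 0.94 with that of the interferon-stimulated genes, or 0.91 without WT 2. Iigp1, a GTPase that attacks parasites within cells, was at 6.21 CPM in WT 3, 41.0 CPM at the median and 173 CPM in WT 2. The class II genes Cd74 (23.6 to 184 CPM), H2-Aa (4.54 to 55.5 CPM) and H2-Ab1 (6.41 to 53.9 CPM) were highest in WT 2, the tumor in which macrophage genes were highest too. Tapbp, which loads class I molecules, was highest in WT 7 (183 CPM over a median of 79.5 CPM). How far macrophages carry these differences was not tested.

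Proliferation genes were expressed in all 8 tumors and moved closely together. The promoters of Mki67, the proliferation antigen, and Bub1b, a kinase of the spindle checkpoint, are printed because they hold both elements that are common in cell cycle promoters, the CHR (TTTGAA) and the CCAAT box (CCAAT), searched on both strands and shown in capitals.
Mki67 (chr7:135716330-135716629, - strand): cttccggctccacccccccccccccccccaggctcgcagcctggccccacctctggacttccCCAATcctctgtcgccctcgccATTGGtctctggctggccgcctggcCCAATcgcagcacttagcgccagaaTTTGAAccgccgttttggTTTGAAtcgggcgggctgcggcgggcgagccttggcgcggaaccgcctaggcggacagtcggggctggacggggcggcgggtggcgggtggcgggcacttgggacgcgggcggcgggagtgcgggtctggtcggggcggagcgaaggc
Bub1b (chr2:118597961-118598260, + strand): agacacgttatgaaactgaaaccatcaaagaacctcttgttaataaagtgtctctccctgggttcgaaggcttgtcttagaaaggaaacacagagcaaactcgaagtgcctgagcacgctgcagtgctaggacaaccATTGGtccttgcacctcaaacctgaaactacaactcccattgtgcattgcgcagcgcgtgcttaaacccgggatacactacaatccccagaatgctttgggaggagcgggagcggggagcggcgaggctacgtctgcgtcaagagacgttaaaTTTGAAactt
Of the 42 genes of mitosis and S phase 33 had a promoter entry. A CHR match was found in 14 of these, against 17.9% of all promoters, a CCAAT match in 24, against 37.4%, and both in 14, against 6.95%.

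All 42 genes of the list passed the filter, and 5 were variable, with a median ratio of 1.52 and a median pair correlation of 0.84. The mean deviation was −0.72 in WT 2 and between −0.25 and 0.41 in the other 7 tumors, and no gene of the list was highest in WT 2. Mki67 was at 533 CPM in WT 2, 805 CPM at the median and 935 CPM in WT 3 (1.20 times the trend). Bub1b was at 56.7 CPM in WT 2, 131 CPM at the median and 194 CPM in WT 1, and Mybl2, a transcription factor of dividing cells, at 43.0 CPM in WT 2, 105 CPM at the median and 196 CPM in WT 1 (2.53 times). Ccnb1, cyclin B1, was at 54.7 CPM in WT 2, 118 CPM at the median and 201 CPM in WT 3. Without WT 2 only 1 of the 42 was variable, although the median pair correlation was still 0.73, and without WT 3 the count was 3 and without WT 1 it was 8.

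Ribosome biogenesis genes, classic targets of MYC, were also lowest in WT 2. All 30 passed the filter, 1 was variable, the median ratio was 1.38 and the median pair correlation 0.84. The count was 4 without WT 1, 5 without WT 4, 3 without WT 5 and 0 without WT 2 or WT 8. The mean deviation was −0.54 in WT 2 and −0.30 in WT 7, and 0.47 in WT 1, and it had a correlation of 0.94 with that of the mitosis and S phase genes, or 0.89 without WT 2. Ddx21, a helicase of the nucleolus, was at 281 CPM in WT 2, 456 CPM at the median and 638 CPM in WT 1, and Heatr1, the variable gene, at 129 CPM in WT 2, 251 CPM at the median and 308 CPM in WT 1. The tumor with the highest levels of adult hepatocyte enzymes was thus the tumor with the lowest levels of both growth groups. WT 2 was, however, the lowest tumor in 29.9% of all genes, the largest share of any tumor. With median-of-ratios scaling its mean deviation was −0.589 for mitosis and S phase and −0.407 for ribosome biogenesis, smaller in size but still the lowest. WT 1 lay at the opposite ends of the enzymes and of ribosome biogenesis. The mean deviation of the enzymes had a correlation of −0.63 with that of mitosis and S phase genes, but 0.07 without WT 2. With ribosome biogenesis genes it was −0.69, and −0.29 without WT 2. The opposition of enzymes to mitosis and S phase genes therefore rested on WT 2.

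Cytosolic ribosomal protein genes had the highest pair correlation of the lists, a median of 0.93 over 29 genes, with 1 variable gene and a median ratio of 1.24. Their order was that of depth: the median correlation with log2 depth was −0.947, and with depth as a covariate the median ratio was 0.474. Rps6, a protein of the small subunit, was at 76.7 CPM in WT 4, 156 CPM at the median and 250 CPM in WT 1. WT 4 was the deepest library and WT 1 among the shallowest. Whether the order reflects the cells or the depth was not tested.

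The list of growth signals and regulators did not move as a group, with a median pair correlation of 0.03. Of 26 genes 22 passed the filter and 4 were variable. Egfr, the epidermal growth factor receptor, which adult hepatocytes express strongly, was at 13.4 CPM in WT 7, 68.2 CPM at the median and 595 CPM in WT 2, and Igf1, the hormone that liver releases under growth hormone, at 41.8 CPM in WT 3, 108 CPM at the median and 504 CPM in WT 2. Ctgf and Cyr61, targets of YAP, were lowest in WT 6 (7.51 and 2.76 CPM) and highest in WT 4 (88.3 and 105 CPM), while Yap1 itself stayed between 147 and 196 CPM (0.559 times the trend). Myc was at 14.8 CPM in WT 6, 19.8 CPM at the median and 47.5 CPM in WT 4 (1.40 times). The labels do not say if reads of the MYC transgene count toward the mouse Myc gene, so this value does not measure the transgene. Subunits of the SWI/SNF complex, to which Arid1a belongs, had 23 of 25 genes past the filter and a median ratio of 1.01, with Smarca2 as the variable gene (7.28 CPM in WT 6, 20.9 CPM at the median and 139 CPM in WT 2).

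Hypoxia and glycolysis genes were divided between tumors. Of 24 genes 22 passed the filter and 7 were variable, with a median ratio of 1.60. Vegfa, the vascular growth factor (41.8 CPM in WT 3, 64.4 CPM at the median), and Slc2a1, the glucose transporter GLUT1 (37.3 CPM in WT 5, 72.5 CPM at the median), both reached 180 CPM in WT 4. Slc16a3, a lactate exporter, was instead lowest in WT 2, at 18.4 CPM, with a median of 95.5 CPM and 173 CPM in WT 8, and Hk2, hexokinase 2, the form that tumors use, was also lowest in WT 2 (62.1 CPM, against a median of 179 CPM). The lowest tumor for the list as a whole was WT 2 or WT 5 depending on the scaling.

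Lipid synthesis genes had their lowest mean deviation in WT 5 (−0.41) and their highest in WT 6 (0.59). All 22 genes passed the filter and 8 were variable, with a median ratio of 1.86, and the count was 4 without WT 6 and 5 without WT 5. Lss, lanosterol synthase, was at 107 CPM in WT 5, 216 CPM at the median and 418 CPM in WT 6. Insig1, which holds back sterol synthesis, was at 146 CPM in WT 5, 170 CPM at the median and 439 CPM in WT 6. Scd1, which desaturates fatty acids, was at 128 CPM in WT 5, 325 CPM at the median and 770 CPM in WT 2.

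Immediate early and heat shock genes, which respond within minutes to stress or handling, were variable in 13 of 18 genes past the filter (of 19), with a median ratio of 2.30 but a median pair correlation of 0.04. The immediate early and the heat shock genes peaked in different tumors. Egr1 (206 CPM over a median of 69.4 CPM), Atf3 (179 over 35.3 CPM) and Dusp1 (197 over 49.3 CPM), which are induced by growth factors and stress kinases, were highest in WT 4. The heat shock genes Hspa1b (168 over 14.4 CPM), Hsph1 (548 over 185 CPM) and Dnajb1 (155 over 55.6 CPM) were highest in WT 5. Of 15 clock genes past the filter, 1 was variable.

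Genes with known differences between inbred strains were looked at because the background was mixed. Of 7 genes 4 passed the filter and none was variable. Nnt, which is deleted in part in some C57BL/6 substrains, was expressed in every tumor, from 147 CPM in WT 1 to 266 CPM in WT 7. Alad, whose copy number differs between strains, ran from 90.8 to 194 CPM.

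To ask which of these processes move together, 1 marker was taken for each of 8 and the 28 pairs were compared over the 8 tumors. None of the 28 passed an adjusted p under 0.05. The closest by Pearson were Afp with Mki67 (r = −0.82, exact permutation p = 0.00928, Benjamini-Hochberg adjusted p = 0.177), Stab2 with Hbb-bs (r = 0.83, exact permutation p = 0.0166, adjusted p = 0.177) and Cyp2e1 with Ifit1 (r = 0.80, exact permutation p = 0.0189, adjusted p = 0.177). For Cyp2e1 and Ifit1 Spearman's rho was 0.83 (exact permutation p = 0.0154, adjusted p = 0.431), and r was 0.63 without WT 1 and WT 2. For Afp and Mki67 rho was −0.69 (exact permutation p = 0.0694, adjusted p = 0.895), and r was −0.49 without WT 2 and WT 5. For Stab2 and Hbb-bs rho was 0.57 (exact permutation p = 0.151, adjusted p = 0.895) and r was −0.09 without WT 6 and WT 7, so that this relation rested on those 2 tumors.

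The genes whose pattern over the 8 tumors was most like that of each marker were found by Pearson's r, with predicted-gene symbols left out. Cyp2e1 was closest to Mug1 (0.98) and Akr1c6 (0.98), then Itgal, Cyp1a2 and Tat. Col1a1 was closest to Col1a2 (0.98), followed by Rgs3, Col5a1, Pcdh12 and Col5a2, and S100a8 to S100a9 (0.95), Ngp, Aqp3, Lrp4 and Mpg. Stab2 had Prelp, Pxdn, Ccdc80, C1qtnf1 and Reln as its nearest genes, among which Reln is on the stellate cell list. Afp was nearest to Alb, Cebpb, Krt8, Fga and Ahsg, most of which are plasma protein genes, and Mki67 to Uchl3, Agk, Cdc25c, Tcf19 and Srsf4. Hbb-bs was nearest to Snx11, Rasgrp3, Sdpr, Hbb-bt and She, and Ifit1 to Exph5, Btbd2, Rab29, Myh14 and Gbp3. With 8 points high values are common: among all 11719 others, a gene had a median of 42 at r of 0.9 or above. Cyp2e1 had 16, Col1a1 9, Ifit1 84 and Mki67 191.

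The 4 FVB WT tumors, which were sequenced and normalized apart and whose genes at or below 1 CPM are listed at 0, were used to ask which genes vary in a second set. There each SD was divided by the running median SD of genes at the same level. Genes were compared when their mean over the 4 FVB tumors was at least 2 on the log2 CPM scale. Of the 1015 variable genes of the mixed-strain tumors 897 were in the FVB table and met this limit. Of these, 471 (52.5%) had a ratio of at least 2, and the median ratio of the 897 was 2.08. Over all 10910 genes compared, 1290 (11.8%) did. Of 538 stable genes 10 (1.86%) did.

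Adult hepatocyte enzymes were again variable, in 27 of 32 genes and with a median ratio of 3.74. Mug1 was at 5.07, 8.64, 7.79 and 6.50 on the log2 CPM scale in the 4 FVB tumors, and Cyp2e1 at 4.27, 8.31, 8.01 and 5.84, so that in both genes the first and the fourth tumor were low. Acute phase genes were variable in 13 of 16 (median 3.26), and all 9 erythroid genes were (median 8.06), with Slc4a1 at 7.63, 7.72 and 3.38 and listed at 0 in the fourth. Afp, which moved with depth in the mixed-strain tumors, was at 8.91, 9.31, 11.55 and 11.44 (6.33 times the running median). Mitosis and S phase genes were variable in 0 of 42 and ribosomal protein genes in 0 of 29.

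Stellate cell and fibroblast genes differed in their count between the sets, with 14 of 17 variable in the mixed-strain tumors and 3 of 17 in FVB (median 1.40). Col1a1 was at 1.37 times the running median there and Peg10, at 9.61, 8.60, 9.67 and 9.09, at 2.30. With 8 and 4 tumors, different ages and separate tables, the difference between the sets was not tested.

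**Figure D5:**
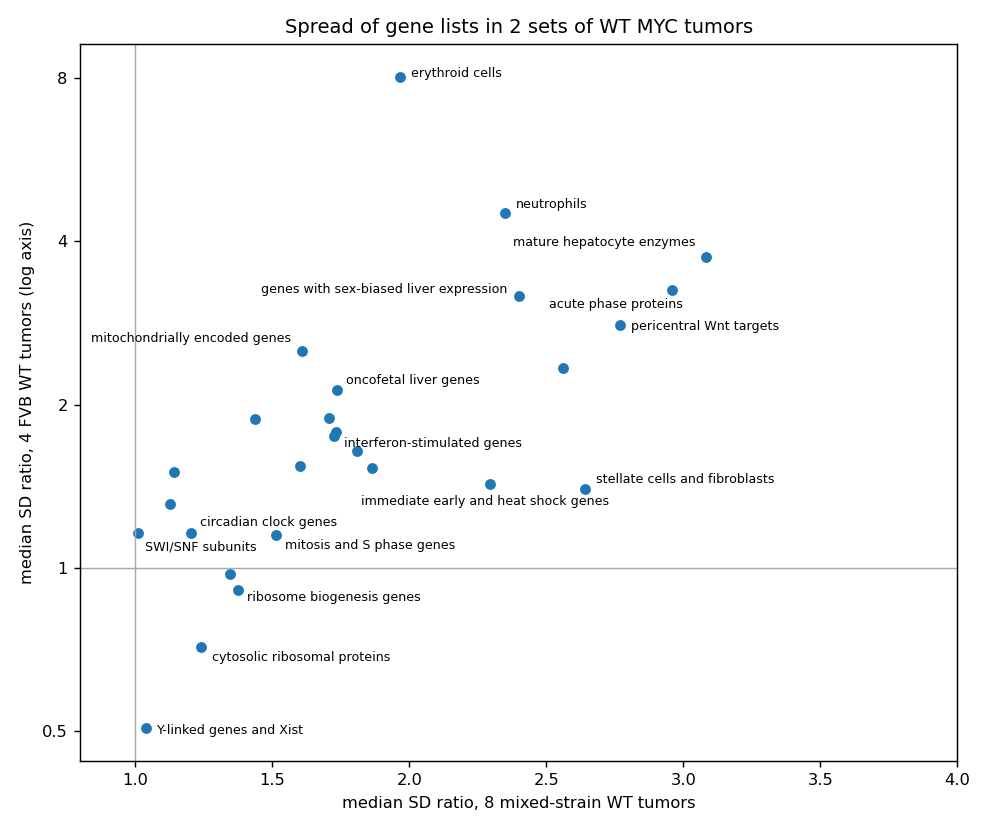
Each point is a gene list, with its median ratio of SD to that typical of the level in the 8 mixed-strain tumors on the x axis and in the 4 FVB WT tumors on the y axis (log axis). Hepatocyte enzymes (3.08 and 3.74) and acute phase proteins (2.96 and 3.26) are high on both axes, mitosis and S phase genes (1.52 and 1.15) are lower on both, and stellate cells and fibroblasts (2.64 and 1.40) are higher on the x axis than on the y axis.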

How the data were processed

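RNA was taken from frozen tumors with Trizol and a miRNeasy kit and sequenced from Nugen libraries, per the labels. Tools named in the submitters' processing notes are Trim Galore, HISAT2, SAMtools and featureCounts, with the build GRCm38 (mm10) and no version. No source used here states the strand setting or whether duplicate reads were removed.

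The authors deposited the mixed-strain values on a log2 scale and named them RPKM. Back-transformed, they summed to 999553 to 999898 per tumor and low values were whole multiples of 1 read (100% within 0.1 reads), so these deposited log2 values were used as log2(CPM + 1), and the step size gave the depth. High values were too coarsely rounded for a count test. The FVB table was deposited as normalized log2 CPM. Of the mixed-strain symbols, 27 had become dates, 18 of them among the genes kept, and these are not named. GENCODE M21 matched 11339 genes (96.7%).

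Over the 8 WT columns, limma 3.58.1 in R 4.3.3 fitted an intercept with a robust variance trend over all 11720 genes, and each gene's variance was tested against the trend by F, two-sided by reporting both tails, with Benjamini-Hochberg adjustment. This was tested on simulated data. Other values came from Python 3.11.15 with numpy 2.4.6, pandas 2.3.3 and scipy 1.17.1. Single relations were tested by two-sided exact permutation over tumors. Since separate mice are not stated, the p-values cover the spread among these 8 samples, which may be technical. Named were the 15 genes with the highest and the 10 with the lowest ratio (averaging at least 50 CPM), marker genes, and members of 30 gene lists. Predicted-gene symbols, such as Gm and Rik names, were left out of these 2 rankings, of the component genes and of the genes nearest each marker. Some genes that this rule names are not reported here. Genes and lists were chosen with earlier results of these data known, and the limits of 2 and 0.5 times the trend after the test called no gene. Alternatives were the filter, the scaling (median of ratios, quantile), depth as a covariate, genes of low coverage and tumors left out.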

Additional observations from a re-analysis of the deposited data

Results flagged for a closer look

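Of 55 series over the 8 tumors (marker genes and the mean deviations of the lists), 5 had a single tumor standing apart from the others by Dixon's criterion, and chance marks about 1 in 20. WT 2 was the tumor in 3 of the 5. Mki67 was at 9.06 on the log2(CPM + 1) scale in WT 2, below the next lowest tumor at 9.55. The mean deviation of the plasma protein genes was 0.884 in WT 2, and the next highest tumor was at 0.118. That of the genes with sex-biased liver expression was 3.19 in WT 2, with the next tumor at −0.0346, but 6 of these 12 genes passed the filter only through WT 2, so this value follows in part from the filter. Over the other 6 it was 1.47 in WT 2, with the next tumor at 0.0852. WT 2 was also the library with the fewest reads. Myc was at 5.60 in WT 4, with the next tumor at 4.74. Arid1a was at 8.94 in WT 7, with the next tumor at 8.53.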

How the results depend on the processing

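The count of variable genes ran from 692 (mean CPM of at least 20) to 1464 (depth as a covariate), and from 962 to 1166 with 1 tumor left out, around 1015 as reported. Genes called by limma for low variance numbered 4 with depth as a covariate, 1 under quantile normalization and 0 to 1 with 1 tumor left out, against 0 as reported. Of the 28 marker pairs, 1 passed under quantile normalization, with a stronger Afp and Mki67 relation. The first component held 39.9% of the variance in genes with a mean CPM of at least 20, and 27.6% to 40.8% with 1 tumor left out, lowest without WT 2. Lists with a median pair correlation of at least 0.5 numbered 19, and 12 without both WT 1 and WT 2, an alternative chosen after seeing the data, as were depth as a covariate and the limit on coverage. The median FVB ratio of the variable genes ran from 1.81 to 2.81 with 1 tumor left out. The other 119 of 129 recomputed summaries kept their direction and size. Of 506 recomputed medians of the 30 lists, 498 stayed within 1.5 times. The exceptions were plasma proteins (0.979 with depth as a covariate, 2.96 for genes under 0.2 reads per exonic base), ribosomal proteins (0.474) and mitochondrial genes (0.740, and 1.03 without WT 1 and WT 2) with depth as a covariate, neutrophils (3.99) at a mean CPM of at least 20, and erythroid (3.02) and sex-biased genes (3.7) at a mean CPM of at least 1. No paired analysis was possible because the tumors form a single group with no second group to pair them with.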

Other observations

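Mitochondrially encoded genes fell into 2 sets. The messages mt-Co2, mt-Co3, mt-Atp6, mt-Nd3 and mt-Nd4l were lowest in WT 3 and varied together, with a lowest pair correlation of 0.971 over their 10 pairs. mt-Co3, a subunit of cytochrome c oxidase, was at 1.41 CPM in WT 3, 41.8 CPM at the median and 79.4 CPM in WT 5, and mt-Co2 ran from 2.81 CPM in WT 3 to 55.1 CPM in WT 7. Their correlation with log2 depth lay between −0.14 and 0.06. The other 7, such as mt-Co1 (339 to 698 CPM) and mt-Nd5 (604 to 1130 CPM), followed depth. In the 4 FVB tumors mt-Co3 was at 8.60, 2.46, 1.91 and 9.04 on the log2 CPM scale. Near-identical nuclear copies exist for parts of the mitochondrial genome, so the counting of these genes is uncertain.

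Neighbouring genes were compared as well. The 11317 adjacent pairs had a median correlation of 0.160, and the 163 pairs in which both genes were variable had a median of 0.646, against 0.129 over all pairs of variable genes, of which 23.8% were at 0.5 or above. Among them were Col6a2 with Col6a1 (0.963), chains of type VI collagen, Abcg5 with Abcg8 (0.947), the paired sterol exporters, and Pbk with Esco2 (0.977), genes of dividing cells. Genes of closely similar sequence, such as Saa1 and Saa2, are also among these pairs. The satellite-like predicted gene Gm10717 ran from 7.57 to 161 CPM.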
